A study of Mus musculus with 9 samples.

Results

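Solute carriers, the Slc genes, encode the membrane transporters that move ions, neurotransmitters, amino acids, sugars and metals across the membranes of cells and organelles. The mRNAs described here are the genes of the authors' gene table whose symbol is Slc followed by a family number, other than Slc1a2 and Slc1a3, and whose transcript carried at least 5 tags summed over 9 libraries. This rule gave 97 of 11622 transcripts with a tag, from 362 Slc lines (342 symbols) in a table of 30999 lines. Among the other Slc lines, 128 had an accession and 0 tags, and 42 had no RefSeq accession and could not be matched. Just outside the rule lay 5 lines with 4 tags (Slc6a7, Slc25a29, Slc35b4, Slc6a20a and Slc25a1), and just inside it 11 members with 5 tags. The members were chosen by these summed tags, to which the Hu libraries also add, so a member's total is a description.

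The libraries come from HITS-CLIP, in which ultraviolet light fixes a protein to the RNA it touches and the RNA fragments recovered with the immunoprecipitated protein are sequenced as tags. The samples were polyribosomes from cortex and cerebellum, cleared of white matter, of pooled FVB littermates; the protocol names male wild-type mice, and Fmr1Tm1Cgr littermates that were run in parallel and are not analysed here. FMRP was precipitated with the mixed monoclonal antibodies 7G1-1 and 2F5 at P14, P15 and P25 and with the polyclonal antibody ab17722 at P14 and P25 (Protocol 1, 1% SDS, 454 sequencing), and with ab17722 at P11 and P13 (Protocol 2, 2% SDS, Illumina). The P11 and P13 lysates also gave the 2 Hu libraries, made by Protocol 2 with a human anti-Hu antiserum. Each library is a pool of mice of 1 age, so P values below measure the spread between libraries that also differ in age. The 454 libraries held 4397 to 7713 transcript tags and the Illumina libraries 25873 to 49847, so that a member without a tag could still hold 3 counts, or 682 CPM (tags relative to the total of their library) in the shallowest library and 60.2 CPM in the deepest; intervals and this limit cover counting error only. Markers fixed for neurons took 0.194 to 0.536% of the FMRP tags and 0.506 to 0.951% of the Hu tags. A single gene of these 6 held 77 and 315 of their 131 and 474 Hu tags (P11 and P13), and not all 6 leaned towards Hu. Markers of microglia were at 0 in every library for 3 of 4 genes and those of endothelium for 2 of 4.

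FMRP, the protein lost in fragile X syndrome, binds mRNA on polyribosomes of neurons and is known for repressing translation, with much of its binding in coding sequence. The neuronal Hu (ELAV-like) proteins bind AU-rich and U-rich elements, mostly in 3′ UTRs, and stabilise or promote translation of their targets. In the brain, Slc proteins set chloride, calcium and pH in neurons and glia, load synaptic vesicles and clear transmitter, and supply mitochondria and the cell with metabolites.

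The tags were spread unevenly over the members. A member had a median of 13 tags over the 9 libraries and at most 270 (Slc8a1). Of the 97 members, 59 had at least 10 tags and 35 at least 20, and the 5 members with most held 31.1% of all of them. In the authors' counts, 10 members had an FMRP tag in all 7 FMRP libraries and 13 had none. The members took 1.12% ± 0.151 (SD, n = 7) of the tags in the FMRP libraries and 1.82% ± 0.212 (SD, n = 2) in the Hu libraries. By library, the share was 1.27% (P14), 1.23% (P15) and 0.959% (P25) with the monoclonal antibodies. It was 1.19% (P14) and 1.21% (P25) with the polyclonal antibody in Protocol 1, 0.873% (P11) and 1.08% (P13) in Protocol 2, and 1.67% (P11) and 1.97% (P13) with Hu. Both Hu libraries lay above all 7 FMRP libraries. Without Slc8a1, the member with most tags, the Hu mean was 1.54% and the FMRP mean 1.08%.

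**Figure D1:**
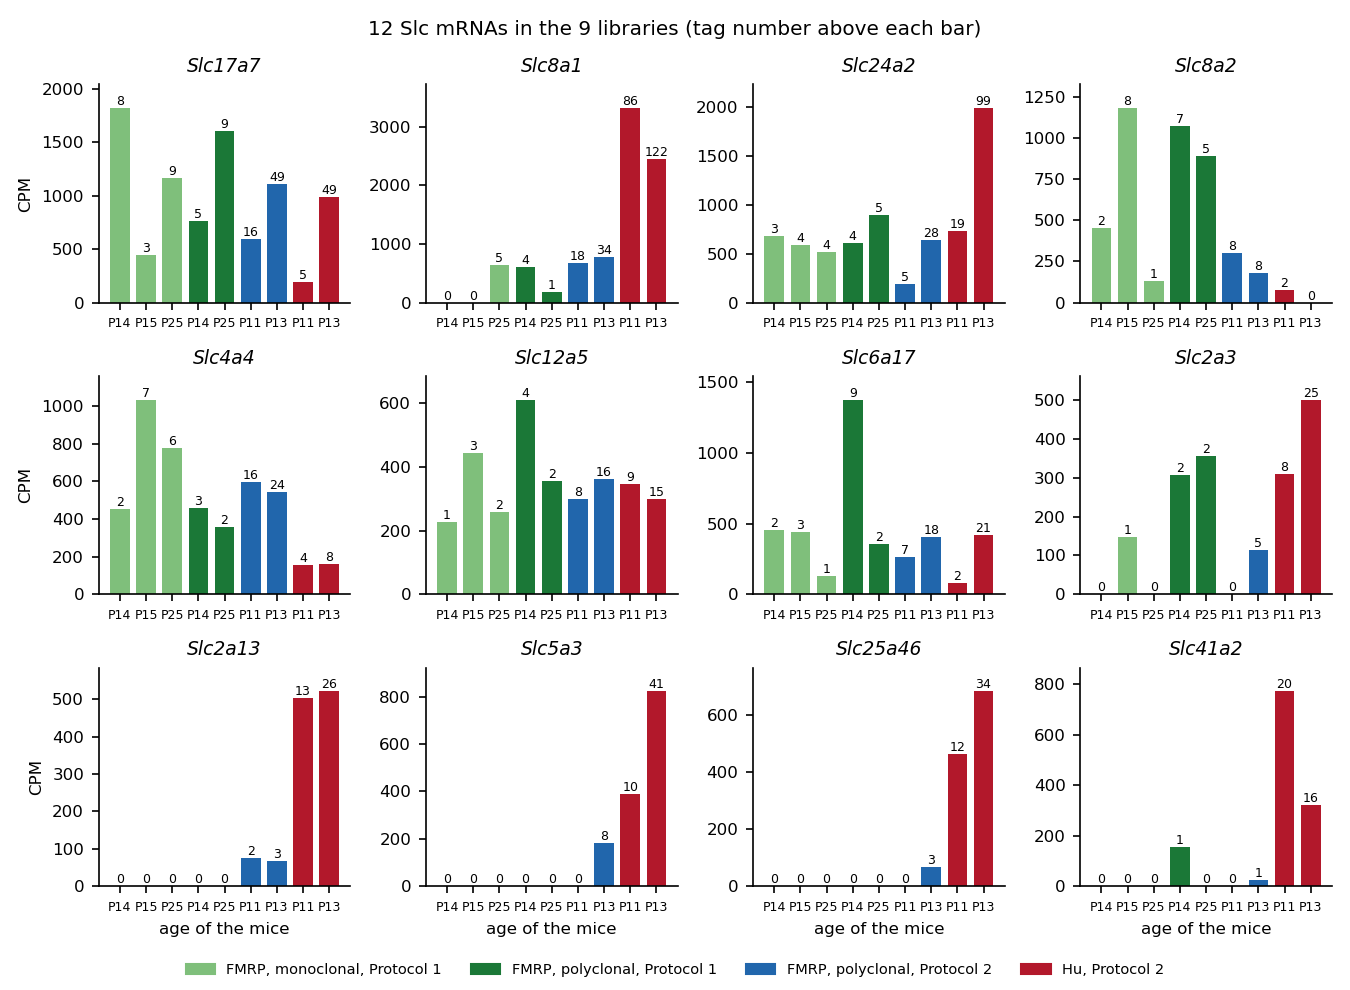
Bars give the CPM of 12 Slc mRNAs in each of the 9 libraries, ordered by antibody, protocol and age, with the tag number above each bar. Slc17a7 and Slc24a2 had a tag in every library, Slc4a4 was above Hu in each FMRP library, and Slc25a46 and Slc5a3 had 0 tags in 6 of 7 FMRP libraries.

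Slc17a7 encodes VGLUT1, which loads glutamate into the synaptic vesicles of excitatory neurons, and it had the most FMRP tags of all members. It lies on chromosome 7 (mm9 chr7:52424928-52431509). The authors counted 103 FMRP tags on it. The monoclonal libraries held 12 (P14), 5 (P15) and 10 (P25), the polyclonal libraries of Protocol 1 10 (P14) and 11 (P25), and those of Protocol 2 13 (P11) and 42 (P13). Its authors' FMRP count per kb of transcript was 32.5, against 9.14 for Slc25a4, the next member on that scale. In the authors' deposited table it ranked 73 with an FDR of 2.3e-08. In the transcript lists, the P11 and P13 libraries held 16 and 49 tags with FMRP and 5 and 49 with Hu, and the CPM values overlapped between the proteins. The log2 ratio of FMRP over Hu was 0.79 (SE 0.80, Benjamini-Hochberg adjusted p = 0.403, quasi-likelihood test of edgeR). Without the P13 Hu library it was 2.48 (adjusted p = 0.0107, same edgeR test), and without the P11 Hu library -0.089. Slc17a5, the lysosomal sialic acid transporter, was the other member from the families grouped under vesicular loading and had 5 tags over the 9 libraries.

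Sodium-calcium exchange was the role with the most tags. Its 5 members (Slc8a1, Slc8a2, Slc8a3, Slc24a2 and Slc24a3) extrude calcium in exchange for sodium, the Slc24 proteins also for potassium. Slc8a1, the exchanger NCX1 (chr17:81772445-82137717), had 18 and 34 FMRP tags at P11 and P13 in Protocol 2, and 86 and 122 Hu tags. In CPM, both Hu values (3324 and 2447) lay above both FMRP values (672 and 771). Slc8a1 was lower with FMRP by a log2 ratio of -1.70 (SE 0.58, adjusted p = 0.0294, same edgeR test). The call ended with DESeq2 size factors in edgeR (adjusted p = 0.0535), with the DESeq2 test (0.154), without the filter on low counts (0.171), without the P11 FMRP library (0.256) and without the P11 Hu library (0.142). In Protocol 1, Slc8a1 had 4 (P14) and 1 (P25) counts with the polyclonal antibody and 5 (P25) with the monoclonal antibodies, and none at P14 or P15 with the latter. Its transcript is 18719 bases long, so on the per-kb scale it had 3.10 authors' FMRP counts and 11.1 Hu tags.

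Slc8a2, the neuronal exchanger NCX2, showed the opposite order. It had 8 and 8 FMRP tags in Protocol 2 and 2 and 0 with Hu, too few for the test across genes. Its scaled share of the FMRP tags was 10.4 times its scaled share of the Hu tags (95% counting interval 2.46 to 93.7). Scaled shares, here and below, use library totals multiplied by the TMM factors of the edgeR fit. These factors placed every ratio of FMRP over Hu higher than plain totals would. The bounds of Slc8a2 held 4 genomic Hu tags on either strand. The authors counted 35 FMRP tags on Slc8a2, with 2, 8 and 1 in the monoclonal libraries (P14, P15 and P25), 5 and 5 in the polyclonal libraries of Protocol 1 (P14 and P25), and 6 and 8 in those of Protocol 2. Between those last groups its log2 ratio of Protocol 2 over Protocol 1 was -1.72 (SE 0.39, adjusted p = 0.0614, same edgeR test), which did not pass. Protocol, sequencing platform and age change together there and cannot be told apart.

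Slc24a2, the exchanger NCKX2 of neurons, had 5 and 28 FMRP tags at P11 and P13, and 19 and 99 Hu tags. Both Hu CPM values (734 and 1986) lay above both FMRP values (187 and 635). The log2 ratio was -1.36 (SE 0.79, adjusted p = 0.149, same edgeR test) and did not pass, and it passed without scaling factors (adjusted p = 0.023) and without the P13 FMRP library (0.0278). Its CPM in the Hu libraries was 2.70 times higher at P13 than at P11 (95% counting interval 1.64 to 4.68), which compares 1 library with 1 library.

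**Figure D2:**
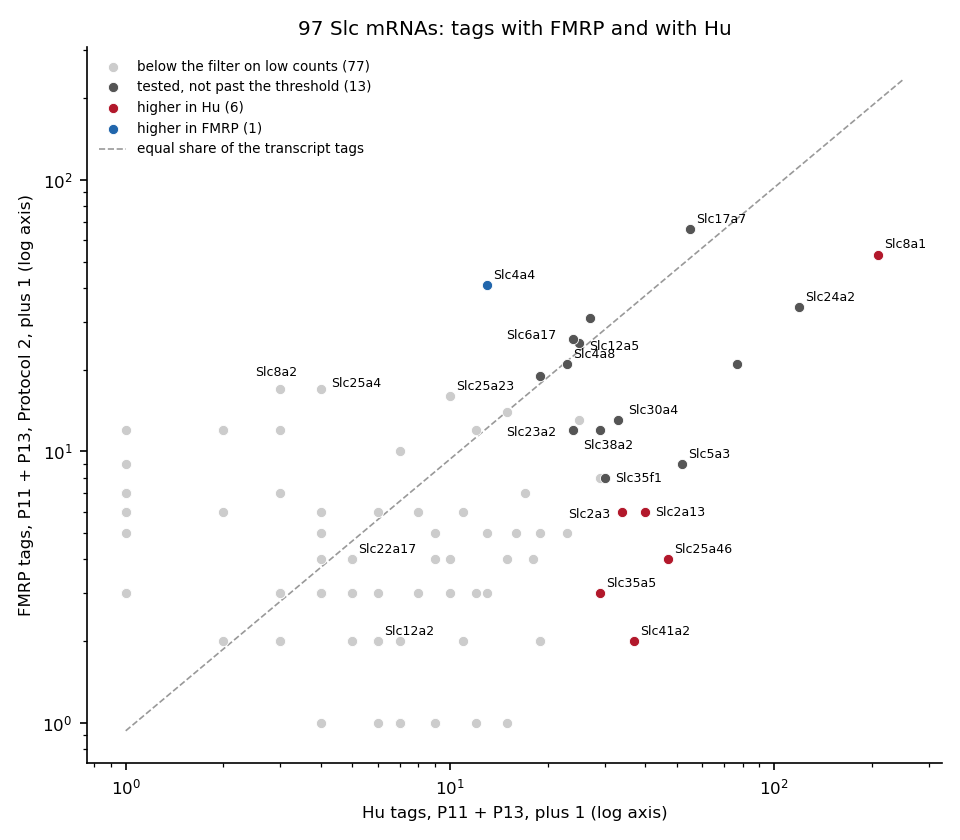
Each point is 1 of the 97 members, with its Hu tags on the x axis and its FMRP tags on the y axis, both summed over the P11 and P13 libraries of Protocol 2 and plotted plus 1 on log axes. Points with equal counts overlap, and the dashed line marks an equal share of the tags of both proteins by plain library totals. The 6 red members higher in Hu lie to the lower right, and Slc4a4, the 1 member higher in FMRP, lies above the line.

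Among the 97 members, more were ordered towards Hu than towards FMRP. The counts below leave out Slc1a2, Slc1a3 and the Slc lines without an accession, so they do not describe the whole family. Enough tags for the test of FMRP against Hu were present in 20 of 97 members. Of these, 1 was higher in FMRP (Slc4a4), against 33.7% of all 1015 genes tested, and 6 were higher in Hu (Slc41a2, Slc25a46, Slc35a5, Slc2a13, Slc2a3 and Slc8a1), against 27.3% of them. In either direction 7 of the 20 members were called, against 61% of all genes tested. The median log2 ratio of FMRP over Hu was -1.19 in the 20 members and -0.17 in all genes tested. Without the P11 FMRP library these medians were -0.47 and -0.21, and without the P13 FMRP library -2.45 and -1.17. The other 13 members did not pass. By order alone, both FMRP libraries lay above both Hu libraries in 15 members (15.5%), against 32.4% of 5867 transcripts with at least 5 tags, and both Hu libraries above both FMRP libraries in 39 (40.2%), against 30.7%. In the other 43 members the libraries overlapped. Members and transcripts alike needed 5 tags over the 9 libraries, Hu included. Those with Hu tags only could not be ordered towards FMRP, so these shares are descriptions. No Hu tag was found on 14 members and no FMRP tag of Protocol 2 on 9, and no share of all transcripts was taken for these counts. The 20 members were tested because their tags were many, so their count says nothing of the 77 below the filter on low counts.

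The number of calls depended on single libraries. It was 2 of 31 members without the P11 FMRP library, 1 of 29 without the P11 Hu library, 3 of 12 without the P13 Hu library and 8 of 20 without the P13 FMRP library. With the DESeq2 test 3 members were called, and without the filter on low counts 2 of 97. With the lysate as a block, which the split lysates allow, 7 members were called again, but Slc2a3 no longer passed (adjusted p = 0.0622, edgeR) and Slc5a3 did (adjusted p = 0.0159, edgeR). Marker genes of other cells differed between the 7 FMRP and the 2 Hu libraries: oligodendrocyte markers took 0.0149 to 0.231% of the tags of the FMRP libraries and 0.506 to 1.16% of those of the Hu libraries. Astrocyte markers took 0.0533 to 0.194% with FMRP and 0.00773 to 0.0241% with Hu, and Gja1 was at 0 in all 9 libraries. A single gene of these 6 held 24 and 32 of their 48 and 51 FMRP tags in Protocol 2 (P11 and P13) and 0 Hu tags. Another of them went the other way, with 0 and 3 FMRP tags and 2 and 6 Hu tags. The part of these markers in the Slc results was not tested.

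Bicarbonate transporters of the Slc4 family move bicarbonate with sodium or in exchange for chloride and set the pH of neurons and glia. Slc4a4, the electrogenic sodium bicarbonate cotransporter NBCe1 of astrocytes among other cells (chr5:89316285-89668681), had 16 and 24 FMRP tags at P11 and P13, and 4 and 8 Hu tags. Both FMRP CPM values (597 and 545) lay above both Hu values (155 and 160). Slc4a4 was higher with FMRP by a log2 ratio of 2.09 (SE 0.68, adjusted p = 0.0244, same edgeR test). The call ended without the filter on low counts (adjusted p = 0.24), without the P11 Hu library (0.23) and without the P13 Hu library (0.0709), with log2 ratios between 1.83 and 2.19 in these fits. The authors counted 49 FMRP tags on Slc4a4, between 1 and 22 in each of the 7 libraries, and their deposited table gives it an FDR of 0.000182.

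Slc4a8, the sodium-driven chloride bicarbonate exchanger of neurons, had 9 and 11 FMRP tags and 2 and 20 Hu tags. Its libraries overlapped, and the log2 ratio was 0.35 (SE 0.70, adjusted p = 0.671, edgeR). The Slc4 members together had 64 FMRP and 43 Hu tags, and Slc4a4 held most of the former. The scaled share of FMRP tags on these 4 members was 1.94 times their scaled share of Hu tags (95% counting interval 1.30 to 2.93).

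Cation-chloride cotransporters (Slc12) set intracellular chloride, which decides how a neuron responds to GABA. Slc12a5, the neuronal chloride extruder KCC2 (chr2:164793488-164825231), had 8 and 16 FMRP tags at P11 and P13, and 9 and 15 Hu tags. The 4 CPM values lay between 299 and 363 and the libraries of both proteins overlapped, with a log2 ratio of 0.34 (SE 0.62, adjusted p = 0.641, edgeR). Slc12a5 had an authors' FMRP count in all 7 libraries, 30 in all. Slc12a2, the chloride importer NKCC1, had 0 and 1 FMRP tags in Protocol 2 in the transcript lists and 1 and 4 with Hu. The authors' table gives it 14 FMRP counts, 4 and 8 of them in the P11 and P13 libraries, so the count of Slc12a2 differs between the authors' table and the transcript lists. Its bounds held 14 genomic FMRP tags over the 7 libraries and 46 genomic Hu tags, on either strand.

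The kinases that phosphorylate these cotransporters were followed as a list of 6 genes. Of the 3 with enough tags, 2 were higher in FMRP, against 33.7% of all genes tested. Wnk1, a kinase upstream of Stk39 and Oxsr1, had 53 and 72 FMRP tags and 3 and 20 Hu tags (log2 ratio 2.94, SE 0.70, adjusted p = 0.00665, edgeR). Wnk2 had 13 and 16 FMRP tags and 0 with Hu in both libraries, and Wnk3 had a log2 ratio of 0.37 (SE 0.75, adjusted p = 0.677, edgeR). Wnk4, Stk39 and Oxsr1 had at most 3 tags in any library.

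Transporters of the plasma membrane that take up transmitters and amino acids were 8 members, most of them of family Slc6. The role had 77 FMRP tags in Protocol 2 and 142 Hu tags. Slc6a17, a vesicular amino acid transporter of neurons in spite of its family, had 7 and 18 FMRP tags and 2 and 21 Hu tags, which overlapped in CPM (log2 ratio 0.59, SE 0.76, adjusted p = 0.505, edgeR). Within Protocol 1, its authors' counts were 8 in the polyclonal P14 library and between 1 and 3 in the other 4 libraries, and in Protocol 2 they were 7 (P11) and 15 (P13).

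Among related genes, 10 enzymes of transmitter synthesis and recycling and 17 subunits of the vesicular proton pump were followed beside the transporters. Of the enzymes 1 had enough tags, Glul (glutamine synthetase, log2 ratio 0.70, SE 0.85, adjusted p = 0.484, edgeR). Of the pump subunits 2 had, Atp6v1a with a log2 ratio of -0.57 (SE 0.86, adjusted p = 0.574, edgeR) and Atp6v1b2 with 0.032 (SE 0.68, adjusted p = 0.973, edgeR), and neither passed.

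Sugar, inositol and monocarboxylate transporters were ordered towards Hu in 5 of 8 members, against 30.7% of transcripts, and 2 of the 3 tested were higher in Hu, against 27.3% of genes. Slc2a13, the proton myo-inositol transporter HMIT, had 2 and 3 FMRP tags and 13 and 26 Hu tags (log2 ratio -2.52, SE 0.67, adjusted p = 0.0105, edgeR). Slc2a3, the neuronal glucose transporter GLUT3, had 0 and 5 FMRP tags and 8 and 25 Hu tags (log2 ratio -2.26, SE 0.81, adjusted p = 0.0352, edgeR). The calls of both ended with the DESeq2 test (adjusted p = 0.0769 and 0.121) and without the filter on low counts (0.112 and 0.171). Slc2a13 passed in none of the 4 fits without a library, and Slc2a3 in 1 of 3. Slc5a3, the sodium myo-inositol cotransporter SMIT1, had 0 and 8 FMRP tags and 10 and 41 Hu tags. Its log2 ratio of -2.20 (SE 0.96, adjusted p = 0.0683, edgeR) did not pass, and it passed without scaling factors, with genomic tags, with 1 tag per start position and without the P13 FMRP library (adjusted p between 0.0029 and 0.0172, edgeR). The members Slc45a4 and Slc45a1, proton-coupled sugar transporter relatives, went the other way and were singled out after their values were seen. Slc45a4 had 6 and 5 FMRP tags and 0 with Hu. Set against 3 counts over both Hu libraries, its scaled share was 4.79-fold higher (lower limit of the exact 95% counting interval 3.28). The bounds of Slc45a4 held 1 genomic Hu tag on either strand. Slc45a1 had 3 and 5 FMRP tags and 0 with Hu in the transcript lists, but its bounds held 4 genomic Hu tags on either strand, so no fold is given.

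**Figure D3:**
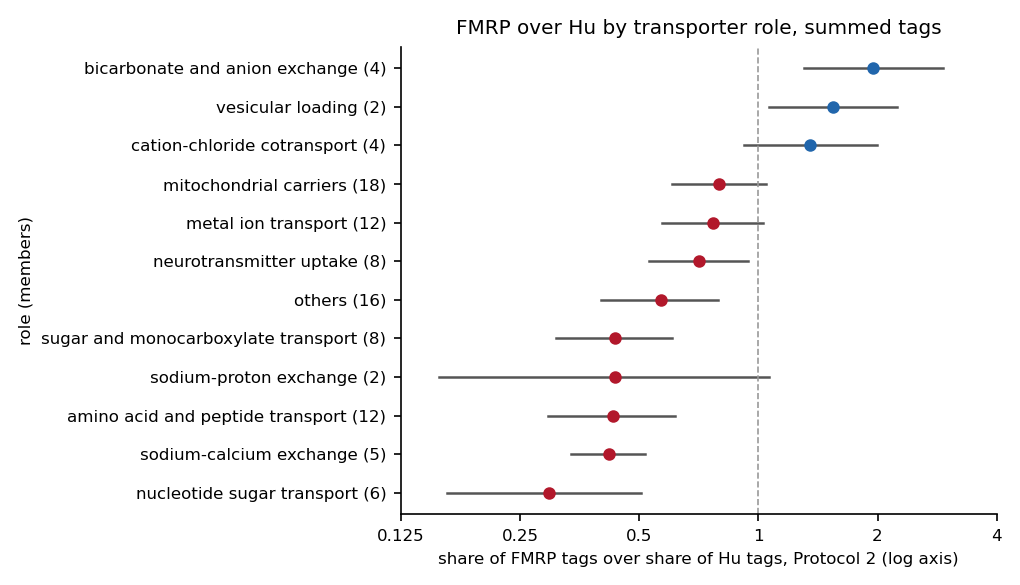
Points give, for each of 12 transporter roles, the members' scaled share of the FMRP tags over their scaled share of the Hu tags in Protocol 2. Tags are summed, library totals are multiplied by the TMM factors, and a 95% counting interval is drawn on a log axis. The number of members is in parentheses. Bicarbonate exchange (1.94) and vesicular loading (1.54) lie above 1 with their intervals, each led by 1 gene (Slc4a4 and Slc17a7). On plain library totals all ratios would be lower, and the interval of vesicular loading would include 1. Nucleotide sugar transport (0.296) lies lowest.

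Mitochondrial carriers (Slc25) were the largest role with 18 members, 89 FMRP tags in Protocol 2 and 146 Hu tags. Slc25a46, an outer membrane protein tied to mitochondrial shape, had 0 and 3 FMRP tags and 12 and 34 Hu tags. Its scaled share of the Hu tags was 11.7 times its scaled share of the FMRP tags (95% counting interval 3.77 to 59.0), with a fitted log2 ratio of -3.43 (SE 0.89, adjusted p = 0.00946, edgeR). The call ended without the P11 FMRP library (adjusted p = 0.107, edgeR) and without the P13 Hu library (adjusted p = 0.264, edgeR). Slc25a4, the ADP/ATP carrier ANT1 (chr8:47292698-47296363), went the other way, with 8 and 8 FMRP tags and 1 and 2 Hu tags. Its scaled share of the FMRP tags was 6.97 times that of the Hu tags (95% counting interval 1.99 to 37.3), with no test across genes because of its low counts. The authors' table gives Slc25a4 3 and 6 counts in the P11 and P13 FMRP libraries, fewer than the transcript lists. Slc25a23, a calcium-regulated ATP-Mg/phosphate carrier, had 3 and 12 FMRP tags and 3 and 6 Hu tags. Slc25a12, the aspartate/glutamate carrier aralar, was singled out after its values were seen, with 1 and 10 FMRP tags and 0 and 1 Hu tags in the transcript lists. Its bounds held 16 genomic FMRP tags over the 7 FMRP libraries and 5 genomic Hu tags, on either strand, so no fold is given.

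Metal ion transporters were 12 members, of which 4 were ordered towards FMRP, against 32.4% of transcripts, and 3 towards Hu, against 30.7%. Slc41a2, a magnesium transporter, had 0 and 1 FMRP tags and 20 and 16 Hu tags. Its scaled share of the Hu tags was 27.6 times its scaled share of the FMRP tags (95% counting interval 4.64 to 1119), with a fitted log2 ratio of -4.62 (SE 1.03, adjusted p = 0.00499, edgeR). Slc41a2 passed in 3 of the 4 fits without a library and not without the P11 Hu library (adjusted p = 0.108, edgeR). Of its 36 Hu tags, 30 lay within 100 bases of the transcript, and the genomic lists held 7 within its bounds, too few to repeat the test there. Slc30a4, a zinc exporter, had the most tags with Slc30a9 close behind in the role. It had 2 and 10 FMRP tags and 9 and 23 Hu tags, with a log2 ratio of -1.02 (SE 0.68, adjusted p = 0.204, edgeR).

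Nucleotide sugar transporters (Slc35) feed the glycosylation machinery of the Golgi and were 6 members with 17 FMRP and 75 Hu tags. Slc35a5 had 0 and 2 FMRP tags and 9 and 19 Hu tags, a scaled Hu share 10.7 times the scaled FMRP share (95% counting interval 2.70 to 92.9). Its fitted log2 ratio was -3.29 (SE 0.77, adjusted p = 0.00635, edgeR), and the call ended with the DESeq2 test (adjusted p = 0.0509), without the filter on low counts (0.0782) and in all 3 fits without a library in which it was tested. Its bounds held 17 genomic Hu tags. Slc35f1 had 1 and 6 FMRP tags and 11 and 18 Hu tags, with a log2 ratio of -1.67 (SE 0.66, adjusted p = 0.0505, edgeR), just short of the threshold.

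Of the remaining roles, amino acid transport was led by Slc38a2, the system A transporter SNAT2. It had 2 and 9 FMRP tags and 9 and 19 Hu tags (log2 ratio -0.96, SE 0.64, adjusted p = 0.202, edgeR). Its role was ordered towards Hu in 8 of 12 members, against 30.7% of transcripts, and towards FMRP in 1, against 32.4%. Slc23a2, the ascorbate transporter SVCT2, had 3 and 8 FMRP tags and 8 and 15 Hu tags (log2 ratio -0.68, SE 0.57, adjusted p = 0.309, edgeR). Slc22a17, a lipocalin receptor, had 5 and 3 authors' counts at P14 (monoclonal and polyclonal), 3 at P15, 6 and 3 at P25, and 0 and 3 at P11 and P13, although the last libraries are the deepest.

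Within FMRP, few members had enough tags to compare protocols, ages or antibodies. Between such pools of tissue, fewer cells of a type, less RNA per cell and less RNA recovered with the protein cannot be told apart. In the polyclonal libraries of Protocol 2 against Protocol 1, 3 members were tested (Slc17a7, Slc8a2 and Slc8a1) and 0 called with edgeR, against 3.95% of 329 genes (1.22% higher and 2.74% lower in Protocol 2). Of the 3, 1 (Slc8a2) had an unadjusted p under 0.05 in edgeR and 0 in DESeq2. For age (P25 against P14 and P15) and for antibody (polyclonal against monoclonal) in Protocol 1, Slc17a7 was the 1 member tested. Its log2 ratio was 0.081 for age (SE 0.60, adjusted p = 0.943, edgeR) and 0.34 for antibody (SE 0.59, adjusted p = 0.988, edgeR). In both comparisons the share of genes called was 0% of 95, with 5 (age) and 4 (antibody) at an unadjusted p under 0.05 in edgeR and 0 members called in DESeq2.

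The authors' own analysis of their FMRP counts is given in their deposited table. There, 12 members have an FDR under 0.01, which is 14.3% of the 84 members with an FMRP count, against 9.13% of the 9192 lines with an FMRP count. The members were chosen for at least 5 tags, FMRP tags included, and the 9192 lines were not. These shares are therefore not comparable. Among the 12 members are Slc17a7, Slc24a2, Slc8a2, Slc4a4, Slc6a17, Slc12a5, Slc22a17, Slc4a8, Slc25a23 and Slc8a1, and the 12 are the members with most authors' FMRP counts. The same table holds an exon array intensity for 94 of the members. Across these, Spearman's rho with the authors' FMRP counts per kb of transcript was 0.555 over the 7 FMRP libraries. It was 0.509 with the FMRP Illumina libraries only. The rho with Hu tags per kb, from the transcript lists of the 2 Hu libraries, was 0.267. These are descriptions across genes that share libraries. Slc22a17 had an intensity of 4911 and 5.12 authors' FMRP counts per kb, and Slc8a1 had a low one (191) with 3.10.

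The tags of the 2 proteins lay at different places on the same transcripts. Over the members pooled, the middle of the tags lay at a median of 33.01% ± 5.83 of the transcript length from the 5′ end in the FMRP libraries (SD, n = 7) and at 61.2% ± 0.429 in the Hu libraries (SD, n = 2). The FMRP libraries ranged from 26.9 to 43.9% and the Hu libraries were at 61.5% (P11) and 60.9% (P13), without overlap. All other transcripts gave 34.96% and 61.3%. In 17 of the 18 members with at least 10 tags of each protein, the Hu median lay nearer the 3′ end, as in 93.8% of 788 other such transcripts. The difference of the medians was 28.6% of the length in the members and 28.2% in the others, so the members were close to the rest.

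Single members showed the shift to differing extents. In Slc12a5 the FMRP median lay at 40.1% and the Hu median at 94.1% of the transcript. In Slc17a7 they lay at 29.5% and 67.0%, and in Slc24a2 at 20.2% and 65.7%. In Slc8a1 the medians were closer, at 25.8% and 39.9%. Slc6a6, the taurine transporter, was the exception, with FMRP at 47.6% and Hu at 33.8% on 12 and 15 tags.

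**Figure D4:**
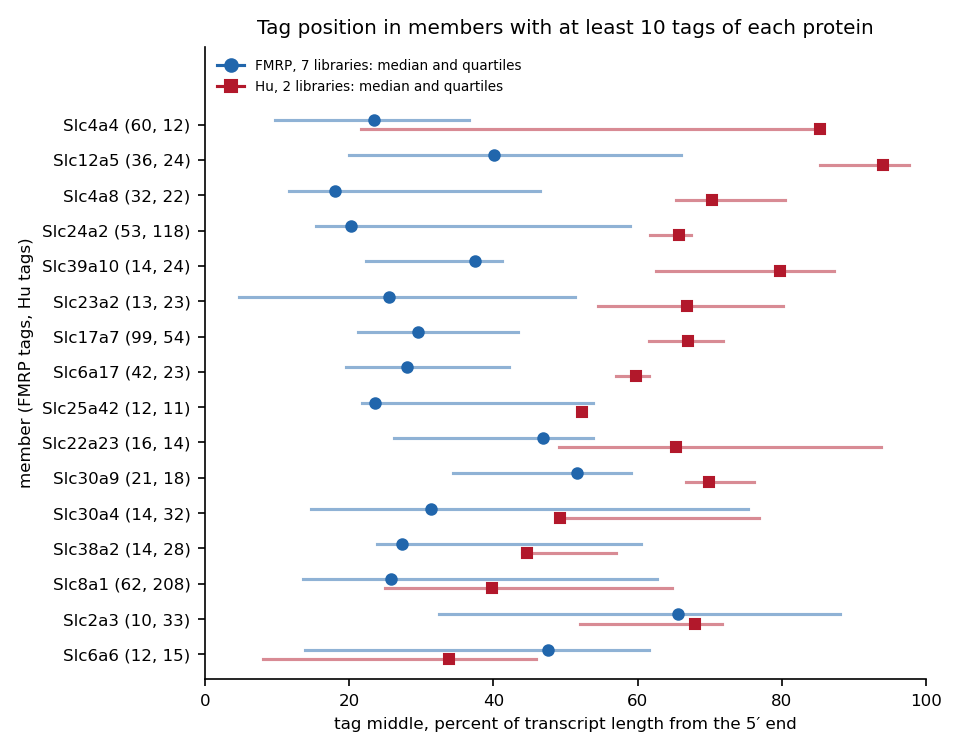
Points give the median position of tag middles, as percent of transcript length from the 5′ end, with lines from the first to the last quartile, for FMRP (circles, 7 libraries pooled) and Hu (squares, 2 libraries pooled) in 16 of the 18 members with at least 10 tags of each. Hu lies to the right of FMRP in 15 of the 16 drawn, and Slc6a6 at the bottom is the exception.

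FMRP tags were denser in coding sequence than its length would give. In the authors' counts, 70.8% ± 9.76 (SD, n = 7) of the members' FMRP tags lay in coding sequence, where the coding length of the same tagged transcripts would give 43.8%. In all other genes it was 81.2% ± 5.52 (SD, n = 7) against 56.1%. By library, the members' share ran from 53.3% at P13 in Protocol 2 (95% Wilson interval 48.6 to 58.1%) to 83.0% in the monoclonal P14 library (70.8 to 90.8%), and each library lay above its value by length. The P13 library was also the lowest for all other genes, at 69.9%. Of 27 members with at least 10 counts, 23 had a coding share above their coding length. For Slc4a4 it was 91.8% of 49 counts against 44.0% of the length, for Slc17a7 85.4% of 103 against 53.1%, and for Slc8a1 36.2% of 58 against 16.0%. Slc25a4, Slc45a1 and Slc6a8 had all of their 14, 14 and 12 counts in coding sequence. The 4 members below their length share were Slc22a23, Slc6a11, Slc30a4 and Slc23a2.

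**Figure D5:**
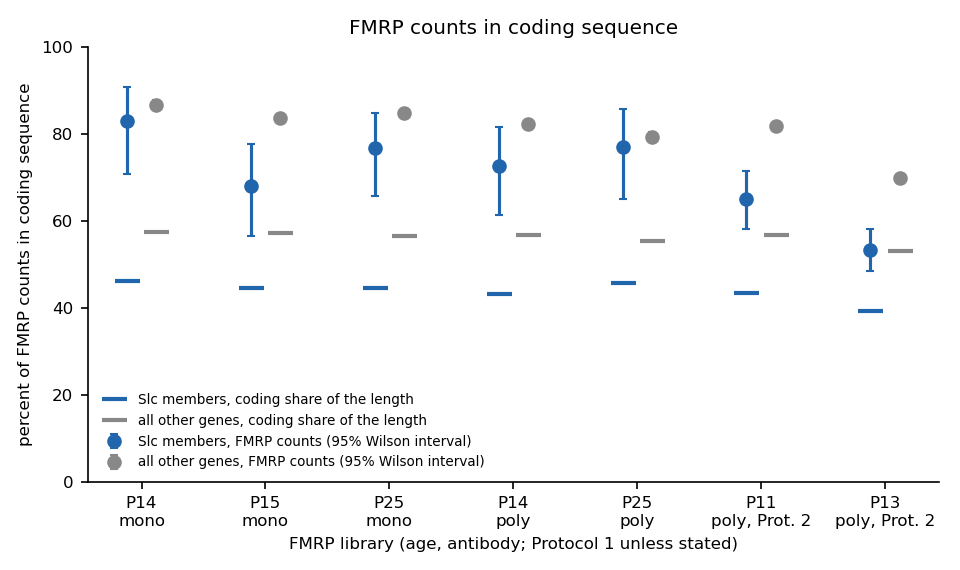
Points give the percent of the authors' FMRP counts that lie in coding sequence in each of the 7 FMRP libraries, for the Slc members (blue) and all other genes (grey), with 95% Wilson intervals that cover counting error only. Horizontal marks give the coding share of the length of the same transcripts, weighted by their counts. Every point lies above its mark, and the P13 library of Protocol 2 is lowest for both.

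Hu tags on some members were piled up in a single place. Of 39 members with at least 10 Hu tags, 7 had over 80% of them within 100 bases of the transcript, and of 29 members with at least 10 FMRP tags none had (the highest was Slc25a4, at 45.5%). The same counts were not taken over other transcripts, so whether the members differ from them cannot be told. Among the 7 were Slc25a46 (87.0%), Slc41a2 (83.3%), Slc27a1 (100%), Slc13a4 (100%), Slc28a3 (92.9%) and Slc25a42 (81.8%), and Slc25a46 and Slc41a2 are among the 6 members called higher in Hu. In the separate lists of tags placed on the genome, the bounds of Slc25a46 held 44 Hu tags on either strand, close to its 46 transcript tags. Those of Slc41a2 held 7 against 36, those of Slc27a1 0 against 18, those of Slc28a3 1 against 14, those of Slc13a4 3 against 12 and those of Slc25a42 1 against 11. The transcript and genomic lists therefore differ for the Hu tags of these members, and the cause was not tested. Slc24a2 had 39.8% of its 118 Hu tags within 100 bases, and its genomic Hu tags were densest at chr4:86631978-86632061 (44 tags, mm9). Slc17a7 had 19.2% of its 99 FMRP tags within its densest 100 bases, with tags there in 5 of 7 libraries.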

How the data were processed

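Tags were mapped with Novoalign to mm9, per the submitters' processing notes; versions are not given in the sources used here. The authors' gene table holds deposited whole-number counts of FMRP tags, for whole transcripts and for coding sequence per the file headers, and an exon array intensity. It also holds the authors' p-value and, treated here as scores, their deposited library number, chi-square and FDR. Hu tags come from the deposited tag lists alone, 1 on transcripts and 1 on the genome for each library, in which each line was counted as 1 tag.

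FMRP against Hu (P11 and P13, Protocol 2) was fitted on transcript tags, and protocol, age (antibody as a term) and antibody on the authors' counts, with edgeR 4.0.16 in R 4.3.3 (TMM, filterByExpr, quasi-likelihood test, Benjamini-Hochberg over all genes tested, threshold 0.05, two-sided), tested on simulated data. Alternatives used DESeq2 1.42.0. Tables and figures used Python 3.11.15 with pandas 2.3.3 and matplotlib 3.10.9. Scaled shares of FMRP and Hu tags use library totals multiplied by the TMM factors. With these, 24 tags of each protein (Slc12a5) gave a ratio of 1.31. Ratios of tag shares carry exact 95% counting intervals, which with all intervals and the limit of 3 counts cover counting error only. The P11 and P13 lysates were each divided between both proteins, per the series text, so the replicate number pairs them; the P13 minus P11 differences of the 2 proteins correlated with r = 0.195 over 1015 genes. Named members are the 12 with most authors' FMRP counts, the 8 with most Hu tags, those past the FMRP against Hu threshold, the leader of each role, and a fixed set of 10 genes. Members, roles and lists were chosen with earlier results of these data known. Sequences of the transcripts were not used here. Some genes are not reported by name here.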

Additional observations from a re-analysis of the deposited data

Results flagged for a closer look

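Some Slc genes outside the rule had more than 3 authors' FMRP counts over the 7 FMRP libraries, above the limit that a count of 0 allows, and were used in no comparison. Slc4a3, an anion exchanger, had 42 and Slc4a10, a sodium-driven bicarbonate transporter, had 27; neither line has a RefSeq accession, so the transcript lists could not be searched for them. Slc7a14 had 11, Slc35e1 6 and Slc20a2 6, also without an accession. Slc25a3 had 10, Slc32a1, the vesicular GABA transporter, had 5, and Slc25a29, Slc16a12, Slc25a1 and Slc30a3 had 4 each, with 1 to 4 tags in the transcript lists. Slc4a3 had a count in all 7 libraries, from 1 to 14, and an FDR of 9.13e-05 in the authors' deposited table.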

How the results depend on the processing

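As reported, 7 members were called between FMRP and Hu (1 higher in FMRP, 6 higher in Hu). The count was 6 with DESeq2 size factors in edgeR, 8 with 1 tag per start position and 7 with the lysate as a replicate block, where Slc2a3 was lost and Slc5a3 gained. It was 3 with the DESeq2 test (2 higher in Hu), 2 without the filter (0 higher in FMRP, 2 higher in Hu), 11 without scaling factors (10 higher in Hu) and 4 of 9 tested on genomic tags (3 higher in Hu), which could be stranded for 14250 of 18007 genes. Leaving out 1 library gave 1 to 8 calls, 0 to 1 higher in FMRP and 1 to 7 higher in Hu. The cause of these changes was not tested. Over the 19 named members tested, 141 of 187 values under other settings kept direction and side of the threshold, 27 fell short of it, 13 passed it and 6 changed sign. Slc12a5 was -0.070 with genomic tags and -0.039 with 1 tag per start position. Without 1 library, Slc17a7 ran from -0.089 to 2.48, Slc4a8 from -0.45 to 0.69, Slc6a17 from -0.23 to 2.40 and Slc23a2 from -0.91 to 0.0099. The median log2 ratio of all genes moved from -0.17 to 0.21 with DESeq2 size factors and to -0.43 without scaling factors; the members' median differed from that of all genes by -1.02 as reported, by -1.12 and -1.07 with these, and by -0.26 (without the P11 FMRP library) to -1.79 (without the P13 Hu library) with 1 library left out. The counts by protocol, age and antibody were 0 under every alternative run. Without Slc8a1 the members' Hu share was 1.54% in place of 1.82% and their Hu position 61.7% in place of 61.2%; the other alternatives for share, position, coding sequence and array moved less than 1 SD. Depth limits the comparison: 77 members fell below the filter on low counts.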
